A study of Mus musculus with 14 samples.

Results

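The 45 genes described here encode Wnt ligands, their receptors, their inhibitors and targets of the pathway, and they were read in sorted cochlear supporting cells (SCs) after 24 hours of Notch inhibition. They were chosen by name: 56 counted symbols matched the Wnt, Fzd, Sfrp, Dkk, Lgr and Rspo families or a fixed set of 12 further genes, and the 45 with at least 10 reads in at least 3 of the 14 libraries were kept, of 35976 symbols counted and 17365 that met the same minimum. By role they comprised 11 of 19 Wnt ligands, 3 of 4 R-spondins, all 10 Frizzled receptors, both Lrp co-receptors, 3 Lgr receptors, 9 of 11 secreted inhibitors, 2 membrane ubiquitin ligases and 5 effectors or targets. Below the minimum were Wnt1, Wnt3a, Wnt8a, Wnt8b, Wnt9b, Wnt10a, Wnt10b, Wnt16, Rspo4, Dkk4 and Sfrp5.

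Secreted Wnt proteins bind Frizzled receptors and the co-receptors Lrp5 and Lrp6, and the signal stabilizes β-catenin, which enters the nucleus and acts with Tcf and Lef factors. R-spondins bind Lgr4, Lgr5 and Lgr6 and withdraw the ligases Znrf3 and Rnf43 that would otherwise remove Frizzled receptors. Sfrp, Frzb, Wif1, Dkk1 and Notum proteins act outside the cell to limit the signal. Dkk2 and Dkk3 were placed with these inhibitors by family name, and whether they limit the signal here was not tested. In the neonatal cochlea, Lgr5 marks SCs with progenitor properties, and Axin2 and Nkd1 are feedback genes widely read as targets of the pathway.

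Cochleae of Lfng-EGFP mice, in which a Lfng reporter transgene labels SCs, were explanted and cultured with 2 µM compound E, which blocks the γ-secretase cleavage that activates Notch, or with DMSO. At P0 (the labels' culture notes say P0-P1) there were 4 libraries of each treatment, and at P6 there were 3 of each. All 14 libraries carried the reporter. Tissue of 4 organs was pooled in a tube before GFP+ cells were sorted, and a cell had to hold reporter signal to be read, while Lfng itself, a Notch target, had a negative log2 fold change with compound E at both ages. Counts on genes ranged from 19415066 to 44430063 per library, values are given as reads per 1000000 counted (RPM), and nothing states that libraries came from separate animals beyond their batch, so p-values measure the spread between these libraries.

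The treatment and the cell label were checked on other genes. All 7 genes of a Notch target list had a negative log2 fold change at both ages, with summed levels of 3681 to 6240.5 RPM in P0 DMSO and 1069 to 1571 RPM in P0 compound E libraries. The 10 SC markers summed to 7254 to 12885 RPM in P0 DMSO, 6291 to 7610.2 in P0 compound E, 4051 to 8376 in P6 DMSO and 2959 to 5656 in P6 compound E libraries, and none of them was at 0 in a whole group. Markers of other cells were also read: the 8 hair cell markers summed to 621 to 1329 RPM in P0 DMSO and 1203 to 1811 RPM in P0 compound E libraries, and the 8 mesenchyme markers to 932 to 1149 and 1211 to 1357 RPM. The 5 markers of the medial (greater epithelial) ridge summed to 2761 to 4977 and 3247 to 4343 RPM, and the 4 glia markers to 312 to 403 and 397 to 451 RPM. Sums for neurons, macrophages, endothelium, melanocytes and lateral or roof epithelium were lower than those for glia at P0. In the P0 treatment fit none of these hair cell or mesenchyme genes was called, 7 of the 8 hair cell fold changes being positive and 6 of the 7 tested for mesenchyme negative. With the replicate block described below, 2 of the 8 hair cell markers and 1 of the 5 medial ridge markers were called higher. In that fit 3 of the 10 SC markers were called lower, against 1 SC marker without the block. The SC, hair cell and mesenchyme sums moved with treatment at P0, and their part in the differences below was not tested. Most of the mesenchyme sum was 1 gene, Lum, at 688 to 845 RPM in P0 DMSO and 941 to 1139 RPM in P0 compound E libraries. The SC sum includes the Notch target Lfng, at 1144 to 3677 RPM in P0 DMSO and 756 to 1139 RPM in P0 compound E libraries. The same sum includes Jag1, at 1233 to 2839 and 793 to 970 RPM. Fgfr3 lay at 1231 to 1881 and 1582 to 1864 RPM, with overlap. Of the 10 SC markers, 8 had a negative log2 fold change and 2 a positive one at P0 without the block. In bulk RNA, fewer cells of a type and less RNA per cell cannot be told apart.

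Several libraries stood apart. P0 DMSO replicate 1 had the lowest SC marker sum of its group (7254 RPM against 11479 to 12885 RPM in the other 3). Lfng alone was read at 1144 RPM there and at 3164 to 3677 RPM in the others. At P6, both libraries of batch 6 (replicate 3) had the lowest SC marker sums of their treatment, 4051 RPM in DMSO and 2959 RPM in compound E, and the highest mesenchyme sums, 4081 and 3382 RPM. Of the 45 Wnt genes, 20 were higher in batch 6 than in both other P6 batches in each treatment, and 8 were lower in each. Of all 17365 genes with the same count minimum, 29% were higher and 13.9% lower there in each treatment. Results that rest on these libraries are given with and without them.

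In control SCs, secreted inhibitors and Frizzled receptors had the highest levels among these genes. Levels between genes were compared per length, as reads per kilobase of exon, scaled to sum to 1000000 over all genes with a known length. Over the 7 DMSO libraries, Sfrp1, a secreted decoy that binds Wnt proteins, had the highest mean level per length of the members, 2227 ± 1052 (SD, n = 7), and ranked 28 of 26763 genes. Fzd9 followed at 816 ± 507, then Dkk3 at 477 ± 291, Ctnnb1 (β-catenin) at 389.8 ± 85.0 and Frzb at 326 ± 202. In the 4 P0 DMSO libraries alone the order began Sfrp1, Fzd9, Dkk3, and neither of the first 2 overlapped with the next (2673 to 3477, 1072 to 1328, and 586 to 844), while from Dkk3 down to Axin2 at rank 30 each gene overlapped with its neighbor in the order.

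Among ligands, Wnt7a led at a level per length of 286 ± 162 over the 7 DMSO libraries, ahead of Wnt7b at 115 ± 31.4 and Wnt5a at 48.7 ± 14.98, and Wnt7b overlapped with Wnt7a in its range. R-spondins, the ligands of the Lgr receptors, were low: Rspo2 averaged 1.36 ± 1.28 and Rspo3 0.653 ± 0.619. Lgr5 was the leading Lgr receptor at 133 ± 83.2, Lrp6 the leading co-receptor at 28.5 ± 11.1 and Rnf43 the leading ligase at 39.6 ± 11.4. The classical readout Axin2 stood at 5.43 ± 2.27 and Lef1 at 3.25 ± 3.30, both far below Ctnnb1. With RPM in place of the level per length, Sfrp1 stayed first, and Fzd9 ranked 3, Lgr5 ranked 5 and Wnt7a ranked 10. These orders pool both ages. In the 3 P6 DMSO libraries alone the mean level per length was higher for Lgr6 than for Lgr5 (103 against 48.6). It was also higher for Wnt7b than for Wnt7a (134 against 128) and for Fzd7 than for Fzd9 (317 against 295). Each of these pairs of genes overlapped.

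**Figure D1:**
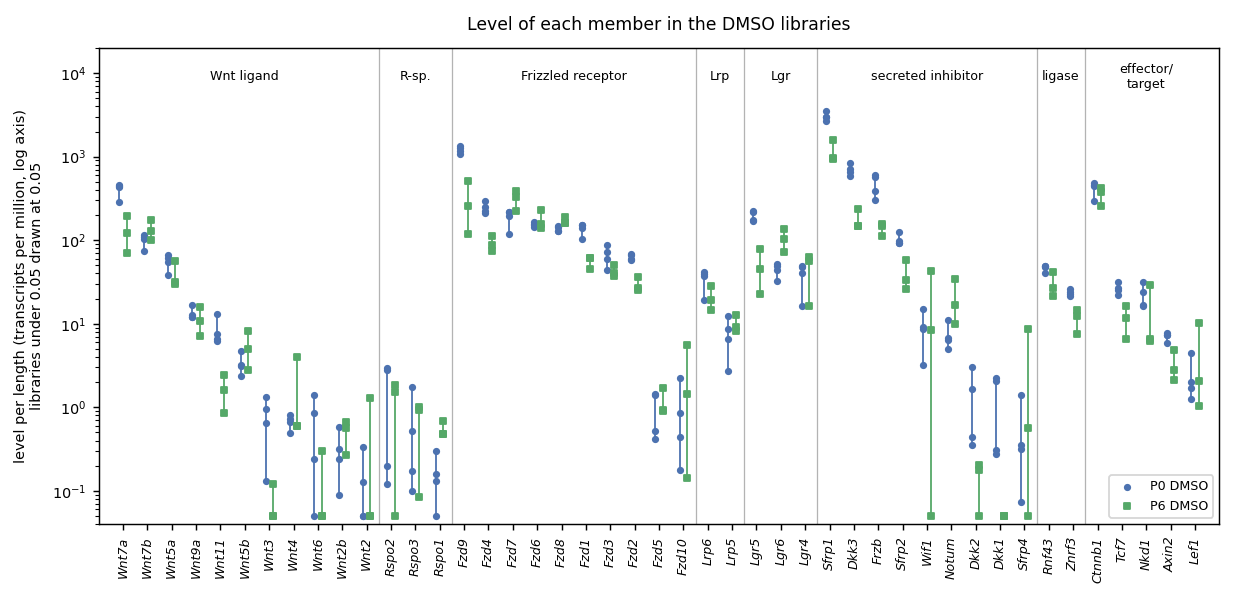
Level per length (log axis) of the 45 members in the P0 DMSO (circles, n = 4) and P6 DMSO (squares, n = 3) libraries, ordered by role and by the P0 mean, with vertical lines from the lowest to the highest library and values under 0.05 drawn at 0.05. Sfrp1 and Fzd9 lie above the rest at P0, and the R-spondins lie below 3 at both ages.

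At P0, Notch inhibition lowered 3 members and raised none: the receptors Fzd9 and Fzd4 and the inhibitor Frzb fell. The test was edgeR's quasi-likelihood test over all genes, with a gene called where its p after Benjamini-Hochberg adjustment was 0.01 or less and its change 2-fold or more, and it called 1.22% of the 15937 genes tested (0.985% lower and 0.238% higher). Of the 43 members tested, 26 had a negative log2 fold change, with a median of -0.10 against 0.01 over all genes. A fit with replicate number as the block, which pairs same-numbered libraries, called 2.2% of genes (0.684% higher and 1.51% lower) and 5 members, all lower: the same 3 with Fzd1 and Dkk3. DESeq2 called 1.72% (0.496% higher and 1.22% lower) and also 5 members, all lower. Rspo1 and Wnt2 were too low to be tested.

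Fzd9 (chr5:135248938-135251230, minus strand, GRCm38) is the Frizzled receptor with the highest level in P0 control SCs. Its P0 DMSO libraries held 638, 746, 677 and 716 RPM and its compound E libraries 134, 156, 132 and 119.8 RPM. The groups lay far apart, and the log2 fold change was -2.40 (SE 0.14, adjusted p = 6.1e-05). Every matched pair of libraries was lower with compound E, by log2 ratios between -2.58 and -2.25. The SC marker sum, which includes Lfng and Jag1, also moved, with medians of 11987 RPM in DMSO and 7293 RPM in compound E. Its part in the Fzd9 difference was not tested. The Fzd9 call was lost without the pair of replicate 4, with a log2 fold change of -2.33 and an adjusted p of 0.0102.

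Frzb (chr2:80411970-80447625, minus strand) encodes a secreted Frizzled-related protein that binds Wnt ligands, and it had the largest fold change of the members. It was read at 254, 479.8, 318 and 453 RPM in P0 DMSO and at 11.6, 64.1, 33.1 and 22.1 RPM in compound E libraries. All compound E values lay below the lowest control, and the log2 fold change was -3.55 (SE 0.51, adjusted p = 0.0042). Within pairs the log2 ratios ran from -4.46 to -2.90. Leaving out 1 library or pair kept the size between -4.13 and -3.27 but lost the call in 6 of 12 such fits (P0 DMSO replicate 2 or 4, compound E replicate 3 or 4, or the pair 3 or 4), with adjusted p up to 0.065.

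Fzd4 (chr7:89404355-89413134, plus strand), a receptor that also binds Norrin, fell by about the threshold of the call. It was read at 391, 485, 361 and 422 RPM in DMSO and at 212, 193, 188 and 219 RPM in compound E libraries. The groups did not overlap, and the log2 fold change was -1.07 (SE 0.13, adjusted p = 0.0016). The call was lost in 5 of 12 leave-out fits, with log2 fold changes between -1.13 and -0.96, those without P0 DMSO replicate 2, compound E replicate 3, or the pair 2, 3 or 4.

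Fzd1 (chr5:4753839-4758035, minus strand) and the Dickkopf family member Dkk3 (chr7:112116017-112159057, minus strand) missed the call in edgeR without the block over all 8 libraries, and were called with the block and by DESeq2. Fzd1 was read at 113, 158, 148 and 157 RPM in DMSO and at 47.1, 79.9, 70.9 and 71.0 RPM in compound E libraries. Its log2 fold change was -1.14 (SE 0.20, adjusted p = 0.013) without and -1.15 (SE 0.09, adjusted p = 0.00022) with the block. Dkk3 was read at 618, 482, 561 and 703 RPM in DMSO and at 206, 331, 193 and 315 RPM in compound E libraries. Its log2 fold change was -1.21 (SE 0.21, adjusted p = 0.012) without and -1.25 (SE 0.17, adjusted p = 0.0043) with the block. Neither gene overlapped between treatments. Fzd1 was also called, with no block, without P0 DMSO replicate 1 (-1.26, adjusted p = 0.0065) and without both libraries of replicate 1 (adjusted p = 0.00062).

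**Figure D2:**
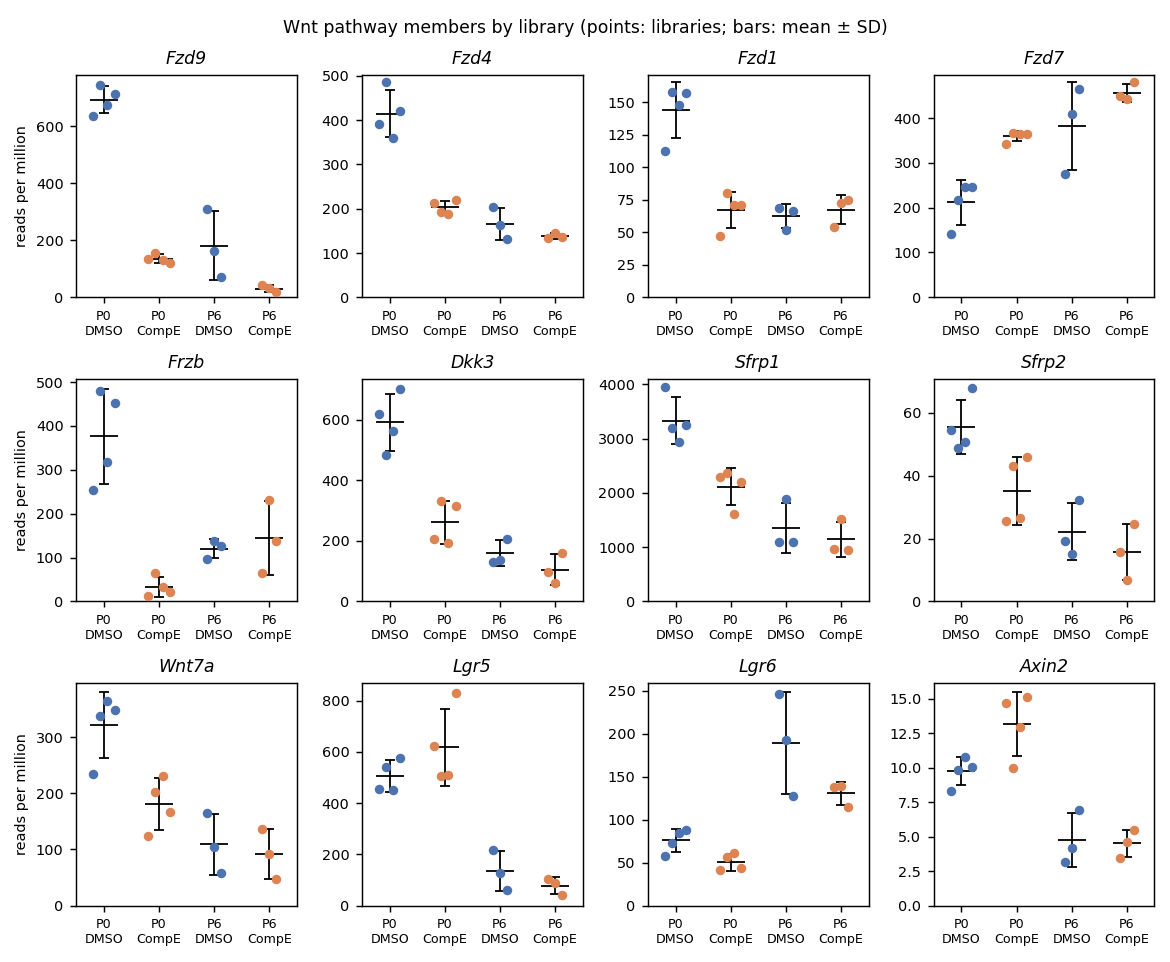
RPM of 12 members in each library (points) with group mean ± SD (bars), for DMSO (blue) and compound E (orange) at P0 (n = 4 each) and P6 (n = 3 each), each axis starting at 0. Fzd9 is lower with compound E at both ages without overlap, while Frzb is lower at P0 and overlaps at P6.

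The bases before the genes that were lower at P0 were read from RefSeq (GRCm38.p6), because members that moved together can be set beside their promoters. RefSeq windows were held for 29 of the 45 members (38 windows), and their 250 bases upstream of the gene start were searched on both strands for GTGGGAA, the core bound by the Notch partner RBPJ, and for CTTTGAT, a core bound by Tcf and Lef factors. Of 32851 upstream windows over all genes, 5.42% held GTGGGAA and 3.21% held CTTTGAT. Among the members GTGGGAA was found in 2 of the 38 windows, for Frzb and Wnt9a, a share near that over all genes. CTTTGAT was also found in 2 of the 38, for Wnt5b and Wnt11. Wnt9a was higher with compound E in 4 of 4 pairs at P0, by log2 ratios of 0.09 to 0.83. The Frzb match begins 28 bases before the RefSeq start, at chr2:80447407-80447435 on the minus strand with 11 bases on each side, and lies inside the GENCODE gene. The same core is shown from Hes5, a Notch target (chr4:154960829-154960857, plus strand), and in reverse from Sp5, a Wnt target that fell at P0 (chr2:70474846-70474874, plus strand), whose window also holds the Tcf and Lef core (chr2:70474808-70474836). Capitals mark the matched letters.
Frzb: tgtcggccgagGTGGGAAggcgcagctgc
Hes5: ggccgccgagtGTGGGAAcggccgcggcg
Sp5, RBPJ core: tgtatatacatTTCCCACatagtgattac
Sp5, Tcf and Lef core: ggcaaggccccCTTTGATcaggaaaatcc

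The 3 Frizzled genes that were lower at P0 held neither core in these windows, which says only that these letters are absent there. The stretches shown lie before the gene starts of both annotations, for Fzd9 at chr5:135251231-135251297 (minus strand), for Fzd4 at chr7:89404116-89404354 (plus strand) and for Fzd1 at chr5:4758217-4758466 (minus strand), and they carry no capitals because no match was found. Dkk3 had no window.
Fzd9: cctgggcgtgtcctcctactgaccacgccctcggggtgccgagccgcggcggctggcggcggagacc
Fzd4: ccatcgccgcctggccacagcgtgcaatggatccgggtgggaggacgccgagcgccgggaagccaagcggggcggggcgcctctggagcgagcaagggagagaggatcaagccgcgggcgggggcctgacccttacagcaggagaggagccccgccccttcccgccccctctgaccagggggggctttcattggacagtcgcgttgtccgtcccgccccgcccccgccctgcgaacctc
Fzd1: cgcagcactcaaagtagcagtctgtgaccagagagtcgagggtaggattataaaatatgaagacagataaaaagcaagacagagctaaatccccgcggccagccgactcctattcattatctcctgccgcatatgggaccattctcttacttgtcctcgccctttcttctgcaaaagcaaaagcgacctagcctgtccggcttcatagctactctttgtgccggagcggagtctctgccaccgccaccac

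Among the other Frizzled receptors at P0, Fzd7 and Fzd2 stayed under the fold threshold. Fzd7 lay at 140.2 to 247 RPM in DMSO and at 343 to 367 RPM in compound E libraries, higher in 4 of 4 pairs, with a log2 fold change of 0.71 (SE 0.19, adjusted p = 0.083) and of 0.76 (adjusted p = 0.014) with the block. Fzd2 lay at 54.6 to 61.1 RPM and 41.0 to 48.2 RPM, lower in 4 of 4 pairs, with a log2 fold change of -0.38 (SE 0.11, adjusted p = 0.099) and an adjusted p of 0.038 with the block. Over the 10 receptors, 5 fold changes were positive and 5 negative with a median of 0.00, and 2 were called. The summed level per length of the Frizzled receptors was 2200.3 ± 222 in P0 DMSO and 1183 ± 24.1 in compound E libraries (SD, n = 4 each). Most of this difference was Fzd9, at 1208 ± 111 and 238 ± 23.4 in the same libraries.

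Of the 9 secreted inhibitors, Frzb was the only one called at P0, and all 9 had a negative log2 fold change, with a median of -0.93 against 0.01 over all genes tested. With the block 8 of 9 were negative, since Dkk1 turned from -0.10 to 0.13, and the median was -0.73. In 10 of 12 leave-out fits 8 of 9 were negative, and in the other 2 all 9 were. Sfrp1, the member with the highest level, was read at 3948, 3197, 2945 and 3242 RPM in DMSO and at 2288, 2363, 1620.3 and 2194 RPM in compound E libraries. Its groups did not overlap, but its log2 fold change of -0.69 (SE 0.15, adjusted p = 0.029; 0.0077 with the block) was below 2-fold. Sfrp2, a related decoy, lay at 48.9 to 67.8 and 25.4 to 46.0 RPM, with a log2 fold change of -0.68 (SE 0.23, adjusted p = 0.17; 0.027 with the block). The other inhibitors, Wif1, Notum, Sfrp4, Dkk1 and Dkk2, were each under 10 RPM in every P0 library, with adjusted p from 0.32 to 0.98. The summed level per length of the inhibitors was 3838 to 4597 in the P0 DMSO and 1841 to 2694 in the compound E libraries.

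No Wnt ligand, R-spondin, Lrp or Lgr receptor, ligase or effector was called at P0. Wnt7a, the leading ligand, was read at 235, 338, 364 and 347 RPM in DMSO and at 124, 203, 231 and 166 RPM in compound E libraries. It was lower in 4 of 4 pairs without overlap, with a log2 fold change of -0.86 (SE 0.23, adjusted p = 0.082; -0.88 and 0.0014 with the block). Of the 10 ligands tested, 6 fold changes were positive, and Wnt7b lay at 94.7 to 141 RPM in DMSO and 142 to 171 RPM in compound E libraries. Rspo2 was read at 3.75, 0.150, 0.254 and 3.78 RPM in DMSO and at 4.88, 4.48, 3.99 and 7.73 RPM in compound E libraries, and its log2 fold change was 1.42 (SE 0.82, adjusted p = 0.54).

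The Lgr receptors differed among themselves at P0. Lgr5 was read at 455, 540.4, 452 and 576 RPM in DMSO and at 621, 508, 510.0 and 829.6 RPM in compound E libraries. These groups overlapped, with a log2 fold change of 0.24 (SE 0.18, adjusted p = 0.67). Lgr6 was read at 58.2, 73.1, 84.2 and 88.2 RPM in DMSO and at 41.0, 56.1, 60.8 and 43.8 RPM in compound E libraries. It was lower in 4 of 4 pairs although the groups overlapped, with a log2 fold change of -0.63 (SE 0.19, adjusted p = 0.14; 0.017 with the block).

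Pathway components inside the cell and at its surface showed smaller differences. The co-receptor Lrp6 was read at 67.5, 139, 136 and 127 RPM in P0 DMSO and at 84.1, 125, 124 and 121 RPM in compound E libraries, and Rnf43 at 69.0, 78.8, 82.1 and 78.6 RPM and at 58.2, 72.1, 73.1 and 74.8 RPM. Ctnnb1 was read at 392, 617, 576 and 586 RPM and at 488, 583, 602 and 628 RPM, with a log2 fold change of 0.04 (SE 0.18, adjusted p = 0.97). All 3 overlapped between treatments. The feedback genes had positive fold changes below the threshold: Nkd1 was higher in 4 of 4 pairs, with a log2 fold change of 0.57 (SE 0.26, adjusted p = 0.38; 0.56 and 0.013 with the block), and Axin2 in 4 of 4 pairs, with 0.39 (SE 0.18, adjusted p = 0.39). Within pairs the log2 ratios ran from 0.46 to 0.69 for Nkd1 and from 0.02 to 0.82 for Axin2. Tcf7 and Lef1 had log2 fold changes of -0.37 and -0.35, with adjusted p of 0.29 and 0.86. Counted by overlap of the groups, 9 members lay wholly lower and 4 wholly higher with compound E (Fzd7, Rspo2, Wnt4 and Wnt7b), 13 of 45, while 9.5% of genes with the same count minimum did not overlap (4.92% higher and 4.58% lower).

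**Figure D3:**
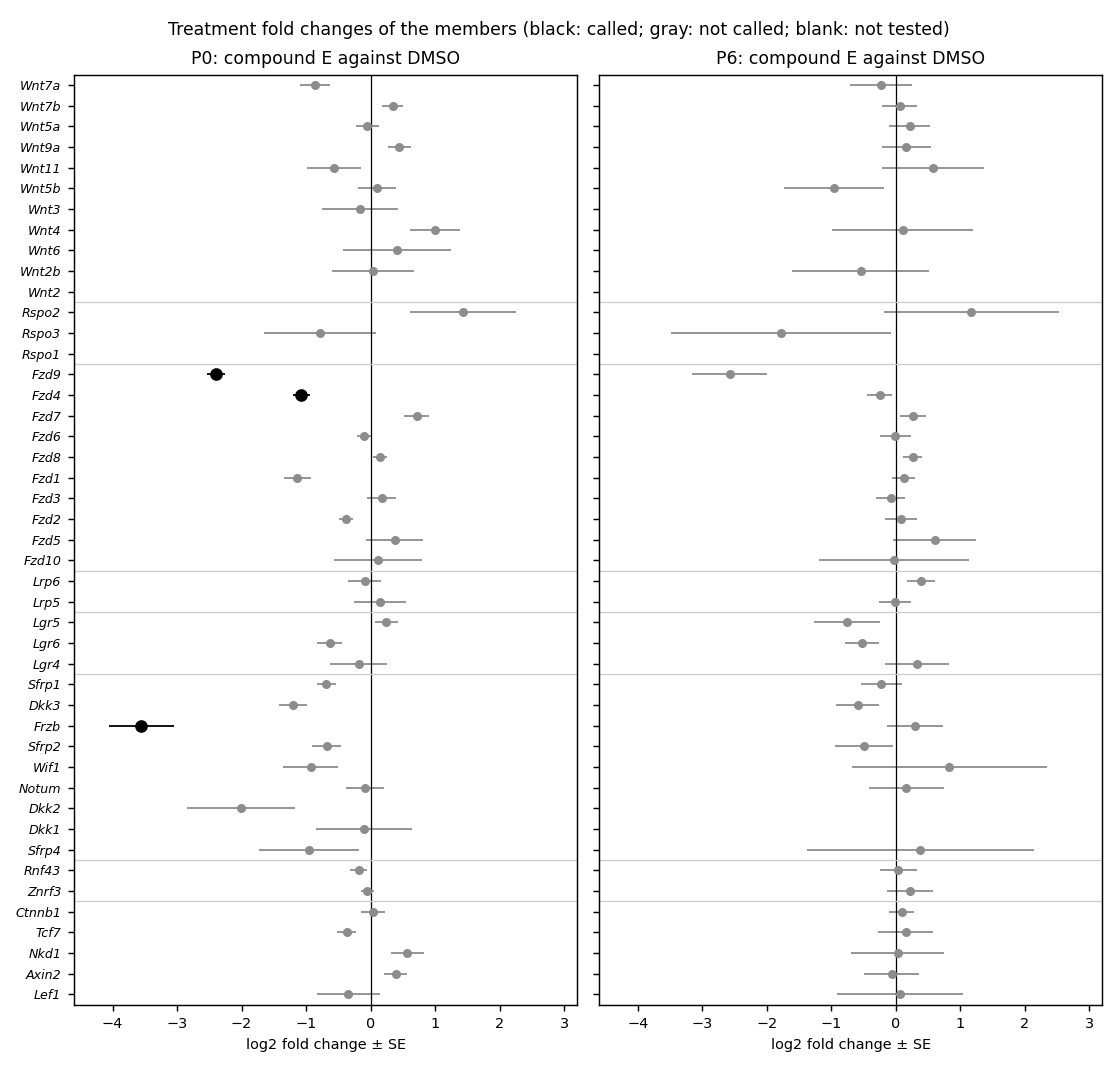
Log2 fold change ± SE of compound E against DMSO for each member at P0 (left, n = 4 against 4) and P6 (right, n = 3 against 3), grouped by role from ligands at the top to effectors at the bottom. Black points (Fzd9, Fzd4 and Frzb at P0) were called, gray points were not, and a member with no point was not tested at that age.

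At P6 no member was called, and neither was any other gene (0% of 15322), with 1 of 39 members and 289 genes at an unadjusted p under 0.05 by edgeR. With the block 0 members were called, with 9 of the 39 and 1108 of the 15322 genes at an unadjusted p under 0.05. DESeq2 called 0.0548% of genes (0.0463% lower) and 1 member, Fzd9. The spread between replicate libraries was wider at P6 than at P0 (a biological coefficient of variation of 46.7% against 27.2%). None of the 7 Notch targets was called by edgeR at P6 either, at a median log2 fold change of -1.61. The lack of calls at P6 therefore does not show a lack of difference. Members had a median log2 fold change of 0.06 against 0.00 over all genes.

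Fzd9 held the clearest difference at P6. It was read at 312, 162 and 70.4 RPM in DMSO and at 41.8, 31.3 and 17.5 RPM in compound E libraries of batches 4, 5 and 6. It was the only member whose treatments did not overlap, of 42 that met the count minimum at P6, in a comparison where 6.95% of genes did not (2.98% higher and 3.96% lower), and within batches the log2 ratios ran from -2.90 to -2.01. The log2 fold change was -2.58 (SE 0.58, unadjusted p = 0.0027, adjusted p = 1.0), and with the block -2.42 (SE 0.19, adjusted p = 0.10). Without the batch 6 pair it was -2.68 (adjusted p = 0.63). In DESeq2 it was -2.57 (adjusted p = 0.0011).

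For Frzb the P6 difference was within the spread of its libraries. It was read at 96.7, 138 and 126 RPM in DMSO and at 64.2, 232 and 138 RPM in compound E libraries. The groups overlapped, and the log2 fold change was 0.29 (SE 0.44). The difference between the P6 and P0 treatment effects was 3.86 on the log2 scale (SE 0.75, adjusted p = 0.19) in the fit of all 14 libraries, which called 0% of 17090 genes and had 811 genes and 3 members at an unadjusted p under 0.05. With the block it was 3.90 (SE 0.43, adjusted p = 0.0084) and Frzb was the only member among the 0.0936% of genes called (0.041% positive and 0.0527% negative). DESeq2 called 0.123% of genes (0.0672% positive and 0.056% negative), Frzb the only member among them.

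The other members called at P0 with or without the block were not called at P6. Fzd4 was read at 204, 163 and 132 RPM in DMSO and at 133, 146 and 136 RPM in compound E libraries, and Fzd1 at 68.8, 52.1 and 66.6 RPM and at 54.4, 72.6 and 74.5 RPM, both with overlap. The difference between the ages' treatment effects was 1.28 for Fzd1 (SE 0.19, adjusted p = 0.027) and 0.85 for Fzd4 (SE 0.18, adjusted p = 0.10) with the block, and neither was called. Dkk3 was read at 132, 137 and 208 RPM in DMSO and at 95.7, 60.0 and 159.8 RPM in compound E libraries, lower in 3 of 3 batches, with a log2 fold change of -0.59 (SE 0.33). Lgr5 (-0.75, SE 0.51), Lgr6 (-0.52, SE 0.26), Sfrp1 (-0.22, SE 0.32), Sfrp2 (-0.50, SE 0.45) and Wnt7a (-0.23, SE 0.48) were also lower in 3 of 3 batches, all with adjusted p of 1.0. Fzd7, Fzd8, Lgr4 and Lrp6 were higher in 3 of 3 batches. The share of all genes with the same sign in every batch, or in every pair at P0, was not counted. Those of the P6 inhibitors that were tested had a median of 0.16, with 4 positive and 3 negative. Without the batch 6 pair their median was -0.05, with 3 positive and 4 negative. Leaving out 1 library or pair put the median between -0.595 and 0.45, so its sign was not stable.

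Batch 6 set much of the P6 spread of these genes. Lef1 was read at 23.6 and 23.1 RPM in the DMSO and compound E libraries of batch 6 and at 2.42 to 6.24 RPM in the other 4. Wif1 was read at 27.1 and 39.2 RPM there and at 0 to 15.3 RPM elsewhere, Sfrp4 at 9.51 and 11.1 RPM and 0 to 1.64 RPM, and Nkd1 at 34.9 and 31.5 RPM and 6.90 to 12.7 RPM. In the opposite direction Fzd9, Lgr5, Wnt7a and Znrf3 were lowest in batch 6 in both treatments, Lgr5 at 60.1 and 42.1 RPM against 88.9 to 215 RPM. The mesenchyme marker Lum was read at 3209.7 and 2747 RPM in batch 6 and at 740.02 to 2113 RPM in the other P6 libraries, and the macrophage marker Ptprc at 8.23 and 17.8 RPM and 0 to 0.278 RPM. The part of these cells in the values of the Wnt genes was not tested.

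**Figure D4:**
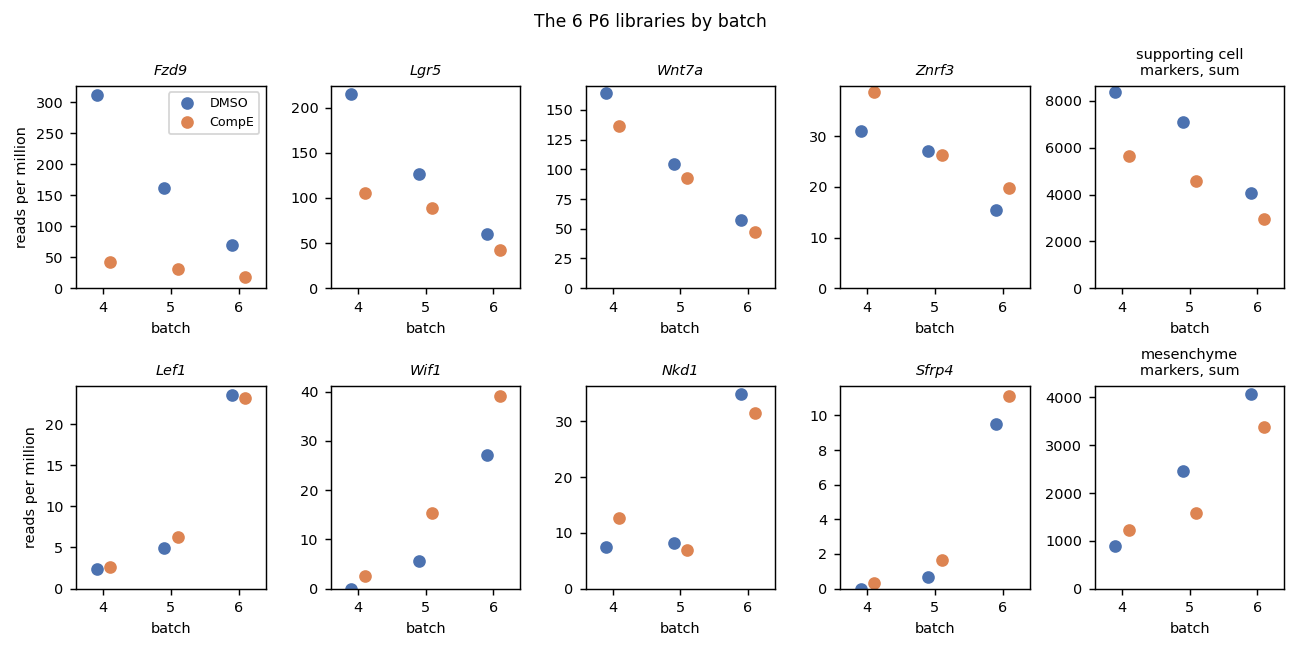
RPM of 8 members and the summed RPM of SC and mesenchyme marker genes in the P6 DMSO (blue) and compound E (orange) libraries of batches 4, 5 and 6, 1 library per point. Both treatments in batch 6 are low for Fzd9, Lgr5, Wnt7a, Znrf3 and SC markers and high for Lef1, Wif1, Nkd1, Sfrp4 and mesenchyme markers.

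Between P0 and P6, the receptors Fzd9 and Lgr5 fell and Lgr6 rose in both treatments. In DMSO, 8 of 43 members were called, 1 higher and 7 lower at P6, where 7.12% of 17090 genes were called (3.74% higher and 3.38% lower). In compound E, 5 were called, 2 higher and 3 lower, where 6.43% of genes were called (3.54% higher and 2.89% lower). DESeq2 called 15 members in DMSO, where it called 7.44% of genes (3.32% higher and 4.12% lower), and 8 in compound E, where it called 6.92% (3.17% higher and 3.75% lower). The members' median log2 fold change was -0.46 in DMSO and -0.23 in compound E, against -0.05 and -0.03 over all genes. No batch held both ages, so age and batch cannot be told apart, and the SC marker sum was lower and the mesenchyme sum wider at P6 as given above.

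Lgr5 (chr10:115450311-115587780, minus strand) marks progenitor-like SCs. At P6 it was read at 215, 126 and 60.1 RPM in DMSO and at 105, 88.9 and 42.1 RPM in compound E libraries, all below every P0 value. The log2 fold change was -1.84 (SE 0.39, adjusted p = 0.0049) in DMSO and -2.82 (SE 0.41, adjusted p = 0.00042) in compound E. Without batch 6 these were -1.47 and -2.50, both called. The DMSO call was lost in 8 of 13 leave-out fits (without batch 1, 2, 3 or 5, P0 DMSO replicate 2 or 4, or P6 DMSO replicate 2 or 3), with log2 fold changes between -2.35 and -1.47 over all 13 and adjusted p up to 0.061. The compound E call was lost without batch 3 only (adjusted p = 0.019).

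Lgr6 (chr1:134983301-135105276, minus strand), a related receptor, moved the other way. At P6 it was read at 247, 193 and 128 RPM in DMSO and at 138, 139 and 115 RPM in compound E libraries, all above every P0 value. The log2 fold change was 1.39 (SE 0.24, adjusted p = 0.0011) in DMSO and 1.51 (SE 0.24, adjusted p = 0.00067) in compound E. Without batch 6 these were 1.64 and 1.62. Both calls were lost in 1 of 13 leave-out fits, that without batch 3 (adjusted p = 0.019 and 0.025). Lgr4, the third of the family, had positive fold changes of 0.38 (adjusted p = 0.64) and 0.91 (adjusted p = 0.23).

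Among Frizzled receptors, the log2 fold change of Fzd9 with age was -1.86 (SE 0.40, adjusted p = 0.0049) in DMSO and -2.02 (SE 0.40, adjusted p = 0.0033) in compound E, so that its P0 compound E libraries (119.8 to 156 RPM) lay within the range of its P6 DMSO libraries (70.4 to 312 RPM). The DMSO call was lost in 8 of 13 leave-out fits (without batch 1, 2, 3 or 5, P0 DMSO replicate 2, 3 or 4, or P6 DMSO replicate 2), with log2 fold changes between -2.48 and -1.45 over all 13, and the compound E call in 5 (without batch 2, 3 or 5, or P6 compound E replicate 2 or 3), between -2.31 and -1.73. Fzd4 (-1.25, SE 0.16, adjusted p = 0.00017) and Fzd1 (-1.14, SE 0.21, adjusted p = 0.0021) fell in DMSO, the call of Fzd1 being lost without batch 3, batch 5 or P6 DMSO replicate 2 (adjusted p up to 0.063). In compound E their log2 fold changes were -0.41 (adjusted p = 0.081) and 0.13 (adjusted p = 0.69). Fzd7 was higher at P6 without overlap in both treatments, by 0.91 in DMSO (adjusted p = 0.0073) and 0.48 in compound E (adjusted p = 0.12), under the fold threshold. Fzd2 was under the fold threshold in DMSO (-0.94, adjusted p = 0.0024), and Fzd8 had log2 fold changes of 0.47 and 0.60.

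Of the 9 secreted inhibitors, 6 had a negative log2 fold change with age in DMSO and 3 fell. Sfrp1 (log2 fold change -1.21, SE 0.25, adjusted p = 0.0042) went from 2945 to 3948 RPM at P0 to 1088, 1882 and 1089 RPM at P6, and to 974, 1522 and 952 RPM in P6 compound E libraries, where its log2 fold change of -0.73 was not called (adjusted p = 0.050). Its DMSO call was lost in 9 of 13 leave-out fits (without batch 1, 2, 3, 4 or 6, P0 DMSO replicate 1 or 4, or P6 DMSO replicate 1 or 3), with log2 fold changes between -1.57 and -1.03, and in compound E it was called without batch 5 (-1.04, adjusted p = 0.0032). Dkk3 fell by 1.83 on the log2 scale in DMSO (SE 0.30, adjusted p = 0.00088; 0.026 without batch 3), and its log2 fold change in compound E was -1.20 (adjusted p = 0.010), which missed the threshold but passed without batch 6 (-1.59, adjusted p = 0.0023). Dkk1, a blocker of Lrp5 and Lrp6, had 0 counts in all 6 P6 libraries. Its P0 DMSO libraries held 34, 53, 6 and 5 counts, most of them in replicates 1 and 2. With counts pooled by group and a floor of 3 counts over the group, it was at least 23.7-fold lower at P6 in DMSO. In compound E it was at least 21.3-fold lower. It was called in DMSO (adjusted p = 0.0092) and missed the threshold in compound E (adjusted p = 0.011). Dkk1 reached 10 counts only in P0 libraries, so its call is not independent of how the members were chosen.

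Frzb had age differences of opposite sign in the treatments. It rose with age in compound E (log2 fold change 2.28, SE 0.52, adjusted p = 0.0068), from 11.6 to 64.1 RPM at P0 to 64.2 to 232 RPM at P6. In DMSO its log2 fold change was -1.58 (SE 0.53, adjusted p = 0.047), from 254 to 479.8 RPM to 96.7 to 138 RPM. Leaving out 1 library or batch ended the compound E call in 9 of 13 fits, those without batch 1, 3, 5 or 6, P0 compound E replicate 1, 3 or 4, or P6 compound E replicate 2 or 3, with log2 fold changes between 1.69 and 2.86. These contrasts share their libraries with the treatment comparisons above.

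Among targets, Axin2 fell with age in compound E by 1.41 on the log2 scale (SE 0.28, adjusted p = 0.0032). It was read at 8.32, 9.84, 10.8 and 10.0 RPM in P0 DMSO, 14.7, 9.99, 13.0 and 15.1 RPM in P0 compound E, 3.17, 4.18 and 6.96 RPM in P6 DMSO and 3.46, 4.598 and 5.46 RPM in P6 compound E libraries. This call was lost in 5 of 13 leave-out fits (without batch 3 or 5, P0 compound E replicate 4, or P6 compound E replicate 1 or 2), with adjusted p up to 0.099. In DMSO its log2 fold change was -0.97 (adjusted p = 0.023), and without batch 6 it was -1.29 and called (adjusted p = 0.0074). The ages did not overlap in either treatment, but exons of Gm11670 overlap Axin2 on the other strand, and reads of both cannot be told apart where counting ignored strand.

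None of the leading genes of the remaining roles was called with age by edgeR. Wnt7a was read at 164, 105 and 57.5 RPM in P6 DMSO and at 136, 92.3 and 47.5 RPM in P6 compound E libraries, with age log2 fold changes of -1.49 (adjusted p = 0.015) and -0.84 (adjusted p = 0.13). Rspo2 was read at 2.09, 0 and 2.48 RPM and at 1.79, 1.498 and 6.92 RPM. Lrp6 was read at 70.4, 54.6 and 100.03 RPM and at 98.0, 81.0 and 113 RPM, and Rnf43 at 73.3, 38.4 and 45.1 RPM and at 47.3, 65.7 and 45.5 RPM. Ctnnb1 was read at 362, 539 and 564 RPM and at 551, 461 and 538 RPM, with age log2 fold changes of -0.09 and -0.03. Of these, Wnt7a alone had P6 DMSO libraries that all lay below the P0 DMSO libraries. In DMSO, 21 of 45 members had wholly separate ages, 17 lower and 4 higher at P6. Over all genes this held for 31% (18.7% lower and 12.2% higher). In compound E, 17 members had wholly separate ages, 12 lower and 5 higher, where 37.9% of genes did (24.8% lower and 13.1% higher). Both counts include Dkk1 and Wnt3, which reached 10 counts only in P0 libraries. Neither count is therefore independent of how the members were chosen.

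**Figure D5:**
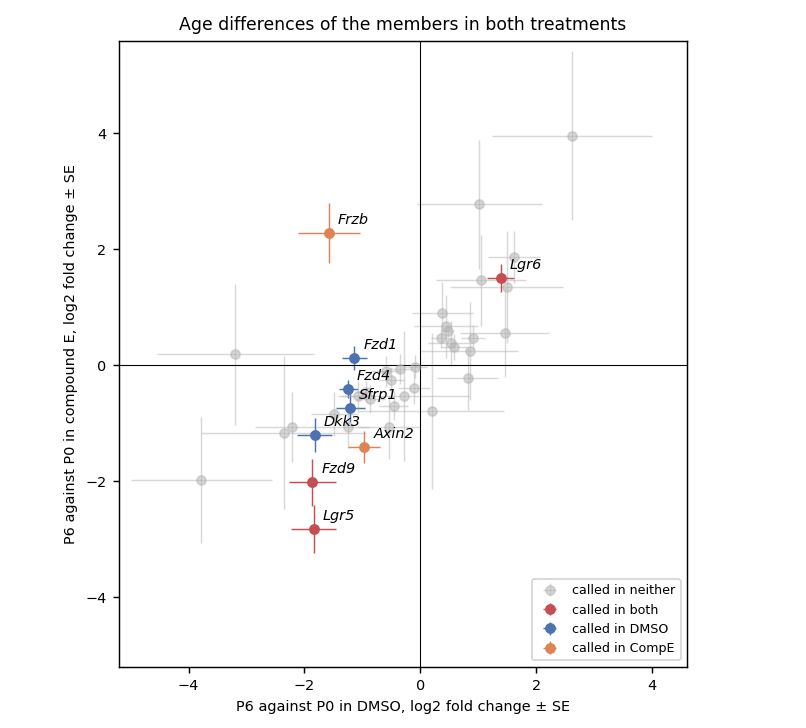
Log2 fold change ± SE of P6 against P0 in DMSO (horizontal axis, 3 against 4 libraries) and in compound E (vertical axis, 3 against 4 libraries) for 42 members, without Dkk1, whose P6 counts are all 0. Fzd9 and Lgr5 lie low and Lgr6 high on both axes, and Frzb lies low in DMSO and high in compound E.

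A further 89 genes of the pathway, from Wnt secretion and planar polarity receptors to cytoplasmic and nuclear components and reported targets, were counted in the same fits. At P0, 1 of the 85 tested was called, where 1.22% of all genes were, with a median log2 fold change of -0.03. Sp5, a transcription factor and reported Wnt target, was read at 21.1, 16.4, 12.7 and 13.4 RPM in DMSO and at 7.97, 7.26, 5.68 and 7.39 RPM in compound E libraries, and fell by 1.20 on the log2 scale (SE 0.19, adjusted p = 0.0065). With the block Jag1 (-1.29, adjusted p = 0.0027), a Notch ligand, and the growth factor gene Fgf20 (-1.63, adjusted p = 0.0053) were also called. Of the 28 cytoplasmic and 16 nuclear components none was called, with log2 fold changes between -0.50 and 0.45 and between -0.78 and 0.38. At P6 none of 84 was called. With age, 1 of 86 rose and 10 fell in DMSO, where 3.74% of all genes were called higher and 3.38% lower, the largest falls in Prickle1 (-1.96), Jag1 (-1.74) and Sp5 (-1.72) and the rise in Frat1 (1.02). In compound E, 2 rose and 6 fell, where 3.54% of all genes were called higher and 2.89% lower, the rises in Frat1 (1.03) and Wls (1.00), which carries Wnt proteins out of the cell, and the largest falls in Draxin (-1.97), Trabd2b (-1.83) and Nrcam (-1.70).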

How the data were processed

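RNA-seq of sorted Lfng-EGFP+ SCs was analysed in 14 libraries, grouped by age, treatment and replicate number from the labels. The submitters' processing notes name Trim Galore 0.6.0, cutadapt 1.15, STAR 2.7.0f and mm10, and the authors deposited raw counts per gene symbol in 1 table for each age. Whether counting used strand, and which annotation, is not given in the sources used here. Full-length cDNA was amplified without molecular identifiers, and replicates of a group differed by more than sampling noise (lowest chi-square over its degrees of freedom 18.96), so each library was 1 sample. Depth was 19415066 to 44430063 counts.

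Counts were tested with edgeR 4.0.16 in R 4.3.3 (TMM, filterByExpr at a minimum count of 10, quasi-likelihood F test, Benjamini-Hochberg adjustment), each age alone for treatment and all 14 libraries for age and interaction. Standard errors are the log2 fold change over the square root of F. Replicate numbers follow the labels' batches, with P0 replicates 3 and 4 both in batch 3, and deviations from group means correlated between same-numbered libraries by 0.232 to 0.545 at P0 and 0.391 to 0.712 at P6, so they were taken as pairs in the block. Exon lengths and positions are from GENCODE M21 (GRCm38), upstream sequences from RefSeq. Exons of Ctnnb1, Fzd5, Fzd6, Lef1, Notum, Rspo3, Sfrp2, Wnt5a, Wnt7b and Wnt11 also overlap genes on the other strand.

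Members, lists and motifs were chosen with earlier results of these data known. Values in every library are given for members called in a treatment comparison or interaction with or without the block, members called at both treatments with age, and the member with the highest level in each role. Members with an adjusted p of at most 0.05 in a treatment fit or called in 1 age comparison are given with fold changes, the rest by range. Alternatives were DESeq2 1.42.0, its size factors in edgeR, no low-count filter, a threshold of 0.05 on the adjusted p alone, blocks, other library sets and leaving out libraries. Scripts were tested on simulated counts.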

Additional observations from a re-analysis of the deposited data

Results flagged for a closer look

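In 90 tests of the members' RPM over the P0 groups of 4 libraries, the gap of 1 library to the others exceeded Dixon's 95% critical value in 6. Chance flags about 1 in 20 groups. In P0 compound E replicate 1, Lrp6 was lowest at 84.1 RPM (others 121 to 125), Rnf43 lowest at 58.2 RPM (others 72.1 to 74.8), Fzd7 lowest at 343 RPM (others 363 to 367) and Tcf7 highest at 16.4 RPM (others 13.0 to 13.1). Dkk2 was highest in P0 compound E replicate 3 at 0.816 RPM, a count of 28 (others 0.103 to 0.180 RPM). Wnt9a was highest in P0 DMSO replicate 3 at 14.3 RPM (others 9.84 to 10.5). Groups of 3 at P6 were not tested.

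The treatment effect on Frzb differed between the ages by 3.90 on the log2 scale (P6 minus P0) in the interaction test with the replicate block, and was negative in 4 of 4 pairs at P0 and in 1 of 3 at P6.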

How the results depend on the processing

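Differences of members with an adjusted p of at most 0.05 in a treatment fit or called with age, Dkk1 aside, kept their direction in each alternative run. At P0 the 3 calls became 5 with DESeq2, with no filter on low counts, with the replicate block and with the batch block, and 6 at a threshold of 0.05 on the adjusted p alone, and ranged from 0 to 4 when libraries or pairs were left out. At 0 was the fit without the pair of replicate 4, and at 1 were those without P0 DMSO replicate 2, compound E replicate 3 or the pair of replicate 3. At P6 the count was 0 in each alternative but DESeq2, with 1. The 8 age calls in DMSO became 15 with DESeq2, 20 at an adjusted p of 0.05 and 5 with the 7 DMSO libraries alone, and ranged from 1 (without batch 3) to 10 (without batch 6). The 5 in compound E became 8 with DESeq2 and 11 at an adjusted p of 0.05, and ranged from 0 (without batch 3) to 7. The interaction count went from 0 to 1 with the replicate block and with DESeq2, and stayed at 0 in all leave-out fits. The replicate block changed no other call of a member than those given. The cause of these shifts was not tested, apart from the smaller number of samples in the leave-out fits. Depth limits the 8 members averaging under 1 RPM in DMSO: at P0 Rspo1 and Wnt2 were not tested, and the other 6 had standard errors of 0.59 to 0.86 on the log2 scale.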
